A study of Mus musculus with 4 samples.

Results

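Lysosomal hydrolases and lysosomal membrane proteins were followed in the hippocampus of mice in which Atp6ap2, an accessory subunit of the proton pump that acidifies lysosomes, was targeted in neurons. The set holds 39 genes of the 23466 gene symbols in the authors' table, chosen by symbol from a fixed list. Each gene was read from its RefSeq record with the highest mean over the libraries, and 31 of the 39 had a single record. The data were 4 libraries of ribosome-depleted RNA from frozen hippocampus at postnatal day 30, all on the C57BL/6N strain. Mutants 38 and 39 are labelled ko in their titles and conditional het:Atp6ap2Camk2aCre/0 as their condition, and the animals labelled wild-type 11 and 73 were the controls. The labels do not say whether the controls carried a conditional allele or Cre. The Camk2a promoter drives Cre in forebrain excitatory neurons, so that glia, vessels, interneurons and choroid plexus keep the intact gene and contribute their RNA to each library. The labels do not say how the samples relate to animals, and p-values therefore cover only the spread among these 4. The comparison asked whether transcripts of lysosomal proteins differ in level between the mutant and wild-type hippocampus.

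Lysosomes break down proteins, glycans and lipids with acid hydrolases, which are made in the endoplasmic reticulum, tagged with mannose 6-phosphate and sorted to the organelle. The limiting membrane is lined by heavily glycosylated proteins and carries transporters, channels and cholesterol-handling proteins. Loss of single members causes lysosomal storage diseases, many of which damage the brain, and neurons and microglia depend on the pathway heavily. Many lysosomal genes carry a promoter element, the CLEAR element, bound by the transcription factor TFEB and its relatives, with the core E-box CACGTG.

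The core was counted in RefSeq promoter windows, which run from 250 bases before to 50 bases after each start site on build GRCm38.p6. The deposited expression values were made on mm9, per the submitters' processing notes, and no coordinate was carried between builds. Windows were found for 35 of the 39 genes, and Asah1, Ctsb, Ctsh and Npc1 had none. CACGTG, which reads the same on both strands, was present for 14 of the 35 (40.0%), against 8.09% of the 27025 genes in the promoter table and 10.7% of the 13009 of them that were tested for expression. The extended motif GTCACGTG, searched on both strands, contains the core and was present for 11 of the 35 (31.4%), against 2.55% of all genes and 4.07% of tested genes. The palindrome TCACGTGA was present for 5 of the 35 (1.12% of all genes), and the palindrome that extends GTCACGTG by AC for Cln3 alone (0.370% of all genes). A match describes letters in a window and is not a measured binding site. The element is known from lysosomal genes, so shares above those of all genes could be foreseen and were not tested. The following stretches, read 5′ to 3′ along the gene's strand with every CACGTG in capitals, show the core in 6 genes of different roles. The longer stretches for Lamp1 and Lgmn are free of annotated exons. That for Glb1 was kept to 30 bases, which touch none, because a longer stretch there would touch one. Those for Mcoln1, Cln3 and Ctsd were also kept to 30 bases, but overlap annotated exons of the gene itself.
Lamp1, chr8:13159092-13159160, plus strand: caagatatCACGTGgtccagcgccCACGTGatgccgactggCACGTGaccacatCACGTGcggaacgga
Mcoln1, chr8:3500463-3500492, plus strand: ggcgccccgctCACGTGaccgcggcgcatg
Cln3, chr7:126583340-126583369, minus strand: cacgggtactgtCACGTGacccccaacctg
Ctsd, chr7:142387907-142387936, minus strand: cgcccgcgtctCACGTGacccgttgagggc
Lgmn, chr12:102439095-102439184, minus strand: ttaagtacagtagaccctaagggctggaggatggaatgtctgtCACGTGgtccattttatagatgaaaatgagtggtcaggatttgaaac
Glb1, chr9:114401017-114401046, plus strand: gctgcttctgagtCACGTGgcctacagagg
The promoter of Lamp1 held 4 copies of the core within its last 69 bases before the start site. Mcoln1, the lysosomal calcium channel mucolipin, and Ctsd, the aspartic protease cathepsin D, each had 2 copies in their windows.

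**Figure D1:**
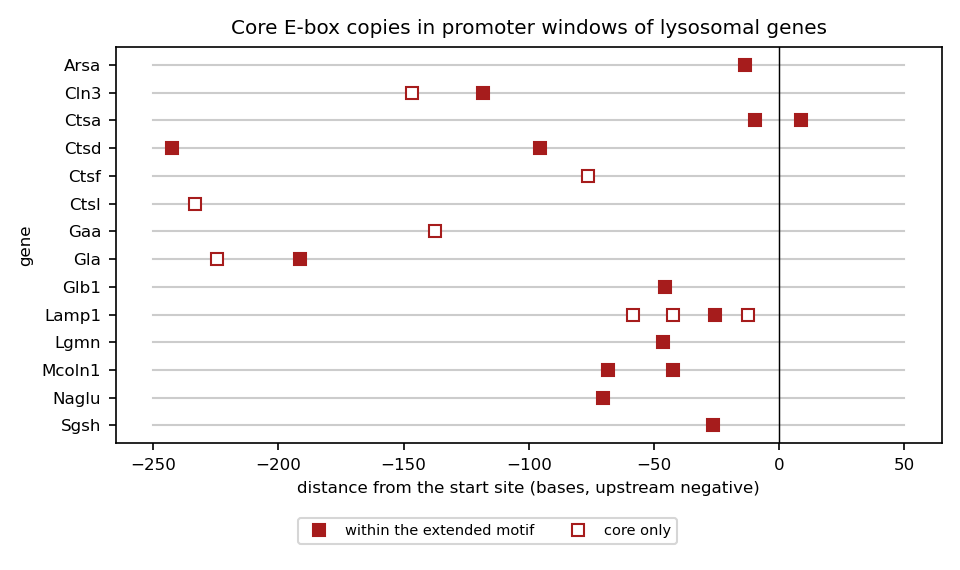
Position of each CACGTG copy (squares) in the promoter windows of the 14 lysosomal genes that hold it, in bases from the start site with upstream negative. Filled squares lie within GTCACGTG on either strand and open squares are the core alone. Lamp1 has 4 copies and most copies lie upstream of the start site.

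The values below are scaled read equivalents, the authors' aligned bases per transcript divided by the 42 bases of a read, after their scaling between libraries. Depth before scaling was between 10023033 read equivalents for wild-type 73 and 18339838 for wild-type 11. Atp6ap2 had 2312 and 2637 in wild-types 11 and 73, compared with 2551 and 2522 in mutants 38 and 39, so that its whole-transcript level was not lower in the mutants (limma log2 fold change 0.04, 95% interval -0.21 to 0.29). All 8 hippocampal neuron markers of the list used were present in every library, with a median log2 fold change of -0.10, and 0 passed. Of the 8, 3 were lower in both mutants (16.5% of all genes tested) and 0 higher (16.8% of all). An unadjusted limma p below 0.05 in the lower direction was found for 2, against 1.75% of all genes tested. These 2 were Fibcd1, a marker of CA1 pyramidal cells, at a log2 fold change of -0.60 ± 0.11 and C1ql2, a marker of dentate granule cells, at -0.33 ± 0.12 (SE, n = 2 per group). Both were larger in size than any difference among the 39 lysosomal genes of the set. The other markers of the list were at -0.05 (Prox1), 0.04 (Wfs1), -0.15 (Zbtb20), 0.10 (Neurod6), 0.01 (Spink8) and -0.16 (Iyd). For Wfs1 (SE 0.40) the mutants lay far apart, with 1069 in mutant 38 and 2885 in mutant 39. Its values were 1631 in wild-type 11 and 1786 in wild-type 73, between those of the mutants. The part of neuronal composition in the lysosomal values was not tested. The 12 choroid plexus markers summed to 73514 (wild-type 11), 122799 (mutant 38), 7402 (wild-type 73) and 7713 (mutant 39), and all 12 divided the libraries this way. Oligodendrocyte markers summed to 87982 and 63704 in wild-types 11 and 73, compared with 108399 and 95984 in mutants 38 and 39, with 8 of 8 higher in both mutants and a median log2 fold change of 0.44. Of the 8, 7 had an unadjusted limma p below 0.05 in the higher direction, against 2.18% of all genes tested, and 0 passed after adjustment. The 11 microglia markers summed to between 5652 and 6051 over the 4 libraries, with a median log2 fold change of 0.05. Of these, 4 were higher in both mutants (16.8% of all genes tested) and 1 lower (16.5% of all), and 0 passed. Only C1qa had an unadjusted limma p below 0.05 (higher, against 2.18% of all genes tested). At 0.39 (95% interval 0.03 to 0.75), C1qa differed by more than any of the 39 lysosomal genes. The part of microglial RNA in the lysosomal values was not tested. No marker of these lists was at 0 in every library. In bulk tissue, fewer cells of a type and less RNA per cell cannot be told apart.

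Per kilobase of transcript, the level of the lysosomal genes spanned 238-fold. Psap, the precursor of the saposins that present lipids to hydrolases, led with a mean of 7004 read equivalents per kilobase and a range of 6218 to 7442 over the libraries. Ctsd followed with 2787 (2585 to 3074), with a range that met neither that of Psap nor that of Lamp1, although 808 exon bases of Ctsd lie in Gm49369 on the same strand and its reads may include those of that gene. Lamp1, a major glycoprotein of the lysosomal membrane, had 1978 per kilobase (1901 to 2116). Gaa, the acid glucosidase that degrades glycogen, had 1688 per kilobase (1459 to 1995), and the cysteine protease gene Ctsb had 1620 (1369 to 1791). The ranges of Gaa and Lamp1 overlapped, and so did those of Gaa and Ctsb, so the order of these neighbours was not resolved. Ids, the iduronate sulfatase gene, came next at 1349 per kilobase (1301 to 1444), a range that overlapped that of Ctsb. Psap alone made up 26.9% of the summed level per kilobase of the 39 genes, and the 5 highest genes made up 57.8%. The lowest means were those of 3 enzymes of glycosaminoglycan breakdown. Sgsh, the heparan sulfamidase, had 29.5 per kilobase (24.2 to 31.6), Gusb, the beta-glucuronidase, had 55.4 (51.7 to 59.2), and Naglu, the alpha-N-acetylglucosaminidase, had 57.1 (54.9 to 61.7). Gla, at 60.4 (51.8 to 68.8), overlapped both Gusb and Naglu in range, and these overlapped each other, while Sgsh lay below all 3 in each library.

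**Figure D2:**
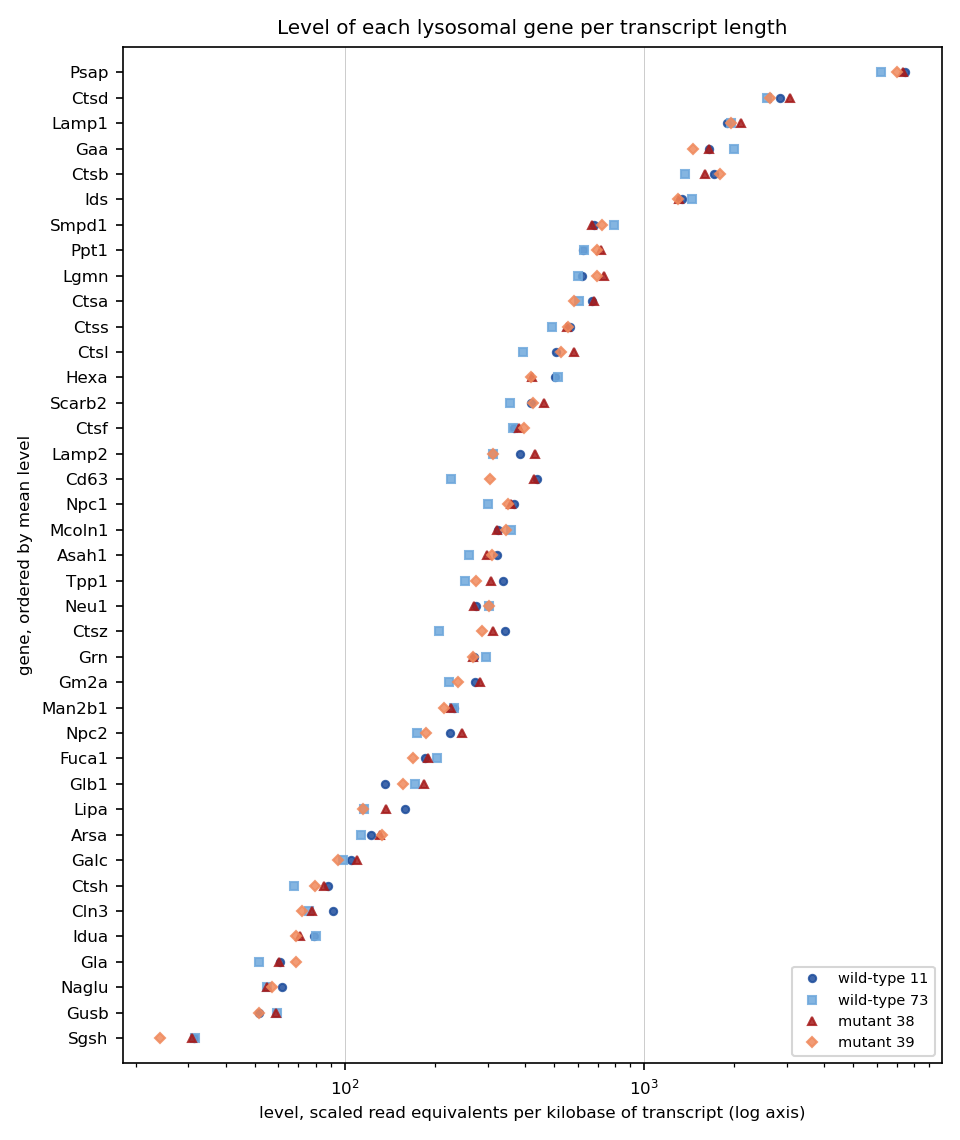
Level of each of the 39 genes in each library, in scaled read equivalents per kilobase of transcript on a log axis, ordered by mean. Psap is highest at a mean of 7004 and Sgsh lowest at 29.5, and for most genes the 4 libraries lie close together compared with the spread between genes.

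Between mutant and wild-type, 0 of the 39 lysosomal genes passed limma's test at an adjusted p of 0.05, and all 39 were tested. Over all 18127 genes tested, 0.00552% passed. The smallest adjusted p among the 39 was 0.989, and 1 gene, Hexa, had an unadjusted limma p below 0.05, in the lower direction, and 0 did in the higher. Of all genes tested, 1.75% did in the lower and 2.18% in the higher direction. Counted in either direction, the lysosomal genes with such a p numbered 6 without wild-type 11, 0 without any other single library, 4 with no filter on low values, 2 with a pseudocount of 5 and 2 with choroid plexus level added to the fit. The largest differences were 0.31 for Ctsl and -0.27 for Hexa on the log2 scale. The 95% interval of every one of the 39 differences lay inside a 2-fold change in either direction, reaching from -0.69 (Sgsh) to 0.94 (Cd63), and 33 of the 39 lay inside 1.5-fold. Each interval holds for 1 gene alone and is not adjusted for the number of genes. In the authors' deposited table, 0 of the 39 had a p below 0.05, against 2.15% of the genes tested here.

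The median log2 fold change of the 39 genes was 0.07, beside 0.0067 over all genes tested, with 22 positive and 17 negative. Of all genes tested, 51.3% were positive. The median was -0.05 without wild-type 73 and -0.03 without mutant 38, so its sign rested on single libraries. Both mutants lay above both wild-types for 7 of the 39 genes (16.8% of all genes tested) and below both for 6 (16.5% of all). With quantile normalization these counts were 5 and 8. Among the 7, Lamp1 rested on 4340.96 in mutant 39 against 4340.27 in wild-type 73. Summed over the 39 genes, the libraries held 76827 and 70941 read equivalents in wild-types 11 and 73, compared with 77579 and 73681 in mutants 38 and 39. These sums overlapped between the groups and made up 0.453% to 0.502% of all signal. For 6 genes the difference between the group means was larger than the difference within either group, namely Hexa, Lgmn, Ppt1, Idua, Arsa and Ctsf. The share of all genes tested for which this held was not worked out, so the count is a description only.

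**Figure D3:**
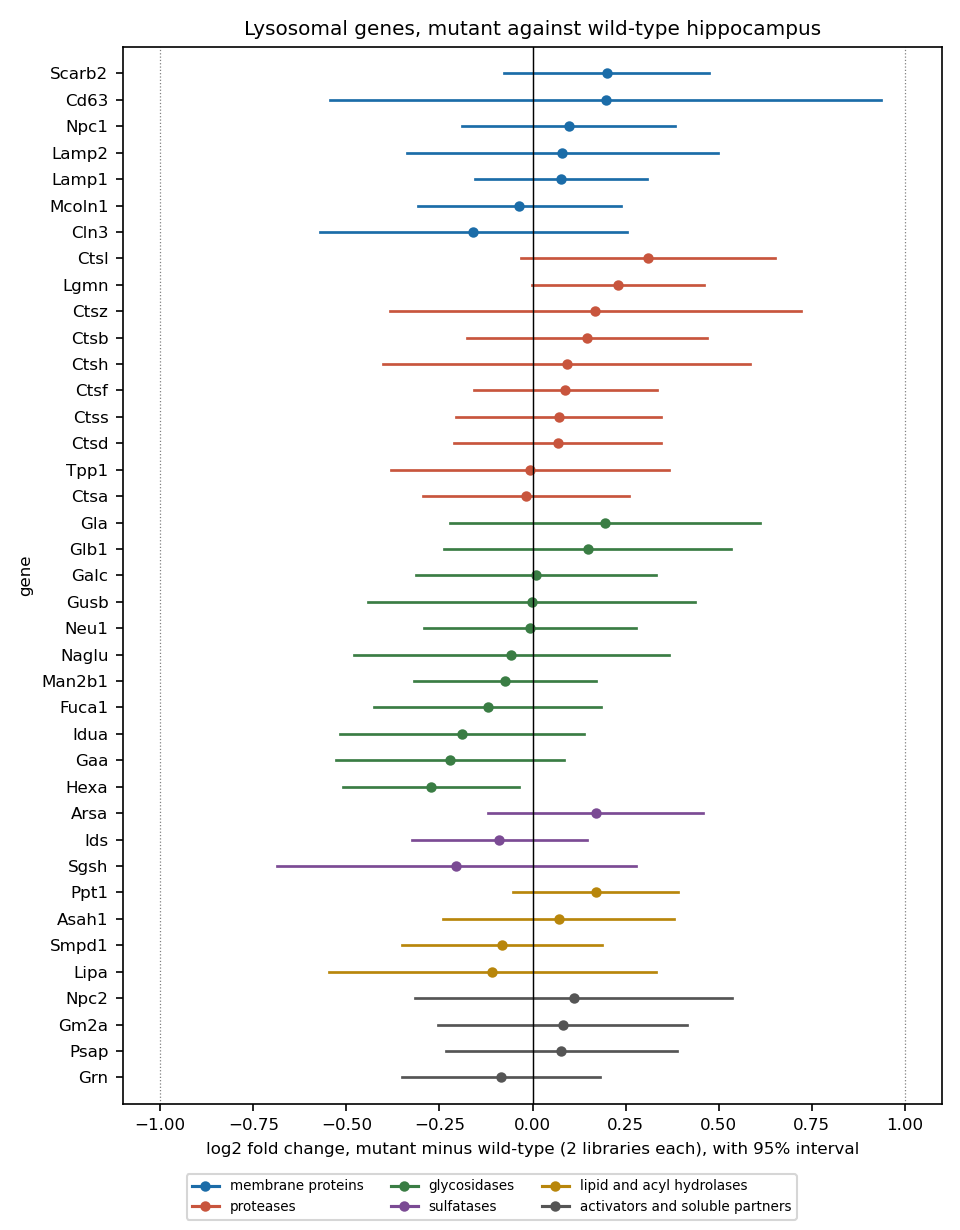
Log2 fold change of each gene in mutant minus wild-type (points; 2 libraries per group) with its 95% interval from limma (bars), coloured by role. All 39 intervals lie inside the dotted lines at a 2-fold change, and only the interval of Hexa lies wholly on one side of 0.

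Among the 7 membrane proteins, the median difference was 0.08 and 0 passed. Higher in both mutants were 2 genes (16.8% of all genes tested), and 0 were lower (16.5% of all). Scarb2, the receptor that carries glucocerebrosidase to lysosomes, had 1974 and 1669 in wild-types 11 and 73, compared with 2169 and 2004 in mutants 38 and 39. Both mutants were above both wild-types, but mutant 39 exceeded wild-type 11 by little (log2 fold change 0.20 ± 0.12, SE, n = 2 per group; limma adjusted p = 0.989). Lamp1 had 4238 and 4340 in the wild-types, compared with 4717 and 4341 in the mutants. Mutant 39 (4340.96) was level with wild-type 73 (4340.27), and Lamp1 counts among the genes higher in both mutants by this margin alone. Its log2 fold change was 0.08 ± 0.10. Lamp2, its partner glycoprotein and the receptor of chaperone-mediated autophagy in one splice form, had 1389 and 1130 in wild-types 11 and 73, compared with 1558 and 1125 in mutants 38 and 39. The groups overlapped, and the spread within each was larger than the difference between them (0.08 ± 0.18). The second RefSeq record of Lamp2, which shares part of its exons, gave -0.0079. Cln3, a membrane protein mutated in juvenile neuronal ceroid lipofuscinosis, had the lowest difference of the group, with 217 and 182 in the wild-types, compared with 185 and 171 in the mutants (-0.16 ± 0.17). The cholesterol exporter gene Npc1 was at 0.10 ± 0.12, Cd63, a tetraspanin of late endosomes, at 0.20 ± 0.31, and Mcoln1 at -0.04 ± 0.12 (SE, n = 2 per group for all values here).

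The 10 proteases had a median difference of 0.09, and 8 were positive (51.3% of all genes tested), but 0 passed. Both mutants were above both wild-types for Ctsl, Lgmn and Ctsf (16.8% of all), and for none were both below (16.5% of all). Ctsl, the cysteine protease cathepsin L, had 1001 and 777 in wild-types 11 and 73, compared with 1152 and 1038 in mutants 38 and 39. The lowest mutant was close to the highest wild-type, while wild-type 73 stood well below the others (0.31 ± 0.14, SE from 2 libraries per group; 95% interval -0.03 to 0.65; limma adjusted p = 0.989). GENCODE M21 places 1742 exon bases of Ctsl over the antisense gene Gm47123, and 14 of the 39 genes share exon bases with a gene on the opposite strand. The strand setting of the counting is not given in the sources used here, so reads from the Ctsl locus cannot be divided between them. On the same strand, where no strand setting would help, exons of Ctsl overlap the pseudogene Gm49230 (395 bases), those of Ctsd overlap Gm49369 (808 bases) and those of Glb1 overlap Tmppe (165 bases). Lgmn, the asparaginyl endopeptidase that processes cathepsins, had 1236 and 1196 in the wild-types, compared with 1465 and 1388 in the mutants. The pairs were tight and did not overlap (0.23 ± 0.10 SE; 95% interval -0.0013 to 0.46; limma adjusted p = 0.989). Lgmn, Ctsl and Scarb2 shared the order mutant 38, mutant 39, wild-type 11, wild-type 73, which was also the order of the summed oligodendrocyte markers. They were picked after their values were seen. The other genes with both mutants above both wild-types, Lamp1, Ctsf, Arsa and Ppt1, did not have this order. The share of all genes with it was not worked out, and the part of oligodendrocyte RNA in the lysosomal values was not tested.

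Ctsb had 8126 and 6495 in wild-types 11 and 73, compared with 7610 and 8495 in mutants 38 and 39. The groups overlapped, with wild-type 73 lowest (0.15 ± 0.14). Ctsd had 6072 and 5499 in the wild-types, compared with 6539 and 5605 in the mutants. Here mutant 39 lay below wild-type 11, and the difference was 0.07 ± 0.12. Ctsa, the protective protein that stabilises beta-galactosidase and neuraminidase, had the lowest difference of the proteases, with 1695 and 1540 in the wild-types, compared with 1727 and 1475 in the mutants (-0.02 ± 0.12). Ctsf, with 727 and 721 in the wild-types, compared with 757 and 783 in the mutants, differed by 0.09 ± 0.10. Of the remaining proteases, Ctsz had 0.17 ± 0.23, Ctsh 0.09 ± 0.21, Ctss, a cathepsin known from microglia, 0.07 ± 0.12, and Tpp1, the tripeptidyl peptidase lost in a late infantile ceroid lipofuscinosis, -0.0068 ± 0.16 (SE, n = 2 per group). Summed over the 10 genes, wild-type 73 had 18198 read equivalents and the other libraries between 21054 and 21684.

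The 11 glycosidases had a median difference of -0.06, with 8 negative and 3 positive (51.3% of all genes tested were positive), and 0 passed. Both mutants were below both wild-types for Hexa, Idua and Man2b1 (16.5% of all), and above both for none (16.8% of all). Hexa, the alpha subunit of hexosaminidase A, which degrades GM2 ganglioside, had 1004 and 1026 in wild-types 11 and 73, compared with 842 and 839 in mutants 38 and 39. The replicates of each group nearly coincided and the groups did not overlap (-0.27 ± 0.10, SE from 2 libraries per group; 95% interval -0.51 to -0.04; limma unadjusted p = 0.0295, adjusted p = 0.989). Within the pair of libraries rich in choroid plexus markers the Hexa difference was -0.25, and within the pair poor in them it was -0.29. Idua, the alpha-L-iduronidase of glycosaminoglycan breakdown, had 280 and 282 in the wild-types, compared with 249 and 243 in the mutants. The groups were apart by more than their replicates (-0.19 ± 0.14), with a 95% interval of -0.52 to 0.14. Exons of Hexa overlap those of Tmem202 on the opposite strand, and exons of Idua overlap Slc26a1 and Dgkq, so the same limit on strand holds for both. The rest of the 14 genes with such an overlap share this limit. They are Arsa, Cln3, Ctsa, Ctsb, Ctsl, Ctsz, Galc, Grn, Lamp1, Npc1, Ppt1 and Sgsh. The shared exon bases number only 10 for Ctsz and 68 for Grn, while 12 of the 14 genes share more than 100.

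Gaa had 5974 and 7248 in wild-types 11 and 73, compared with 6002 and 5301 in mutants 38 and 39. Mutant 38 was level with wild-type 11, and wild-type 73 was highest (-0.22 ± 0.13). Fuca1, the alpha-L-fucosidase, had 469 and 513 in the wild-types, compared with 479 and 425 in the mutants, which overlapped (-0.12 ± 0.13). Gla, the alpha-galactosidase lost in Fabry disease, had the highest difference of the glycosidases, with 193 and 164 in the wild-types, compared with 191 and 218 in the mutants. Mutant 38 lay between the wild-types there (0.19 ± 0.18). Gusb had 139 and 159 against 158 and 139, and Naglu 158 and 140 against 141 and 146, wild-types 11 and 73 before mutants 38 and 39 in each case. Neither gene separated the groups, at -0.0023 ± 0.19 and -0.06 ± 0.18. Glb1 (0.15 ± 0.16), Galc (0.0090 ± 0.14), Neu1 (-0.0064 ± 0.12) and Man2b1 (-0.07 ± 0.10), which cleave galactose, galactosylceramide, sialic acid and mannose linkages, completed the group (SE, n = 2 per group).

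Of the 3 sulfatases 0 passed, and their differences went both ways. Arsa, the arylsulfatase that degrades sulfatide of myelin, had 427 and 395 in wild-types 11 and 73, compared with 460 and 464 in mutants 38 and 39. Both mutants were above both wild-types (0.17 ± 0.12, SE, n = 2 per group). Sgsh had 137 and 138 in the wild-types, compared with 134 and 105 in the mutants, so that mutant 39 alone was far from the rest (-0.20 ± 0.20). Ids had 6650 and 7179 against 6528 and 6466, with both mutants below both wild-types by a small margin (-0.09 ± 0.10).

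Lipid and acyl hydrolases numbered 4, with 0 passing and a median of -0.0055. Ppt1, the palmitoyl thioesterase lost in infantile ceroid lipofuscinosis, had 1489 and 1505 in wild-types 11 and 73, compared with 1704 and 1664 in mutants 38 and 39. The groups did not overlap, and their difference of 0.17 ± 0.09 exceeded that within either group (SE from 2 libraries per group; 95% interval -0.05 to 0.39; limma adjusted p = 0.989). Lipa, the lysosomal acid lipase, had 470 and 344 against 408 and 341. The higher library of each group was the one rich in choroid plexus markers (-0.11 ± 0.19). The ceramidase gene Asah1 was at 0.07 ± 0.13 and the sphingomyelinase gene Smpd1 at -0.08 ± 0.11.

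Among the 4 activators and soluble partners, 0 passed and the median was 0.08. Psap had 19772 and 16521 in wild-types 11 and 73, compared with 19532 and 18616 in mutants 38 and 39, with both mutants between the wild-types (0.08 ± 0.13). Npc2, which binds cholesterol in the lumen and hands it to Npc1, had 743 and 575 against 811 and 614. The libraries of each group differed by more than the groups did (0.11 ± 0.18). Grn, the progranulin gene whose loss causes frontotemporal dementia and, in both copies, a ceroid lipofuscinosis, had 632 and 695 against 625 and 625. Both mutants lay just below wild-type 11 (-0.08 ± 0.11), and the 95% interval ran from -0.35 to 0.18. Gm2a, the activator protein that works with hexosaminidase A on GM2 ganglioside, was at 0.08 ± 0.14 (SE, n = 2 per group for all values here).

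**Figure D4:**
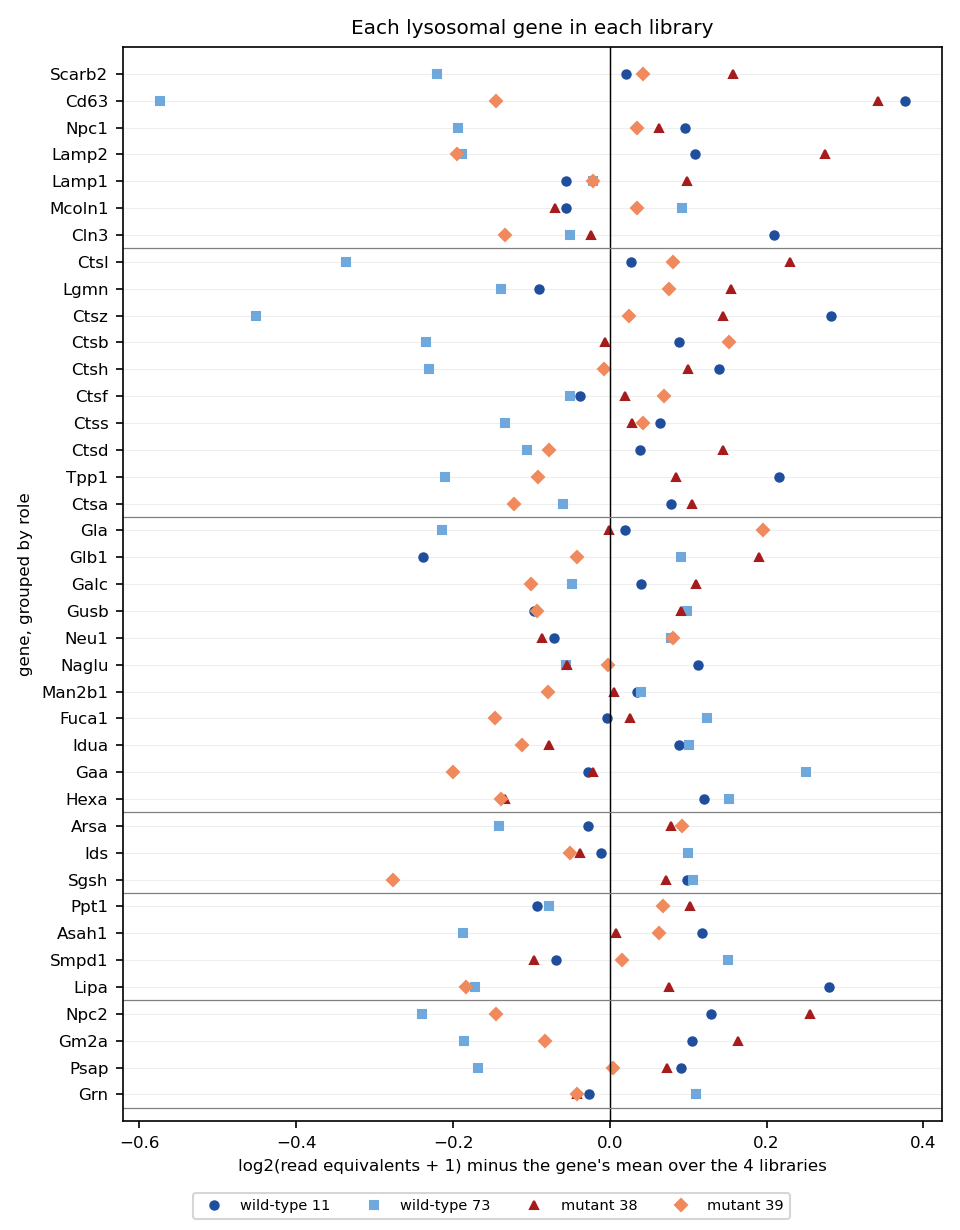
Value of each gene in each library as log2(read equivalents + 1) minus the gene's mean over the 4 libraries, grouped by role. Wild-types are blue and mutants red or orange. For Hexa, Lgmn and Ppt1 the colours separate, while for Cd63, Ctsz and Lamp2 libraries of the same group lie far apart.

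Genes with and without the extended promoter motif were set side by side. The 11 with GTCACGTG had a median log2 fold change of 0.07 and a range of -0.20 (Sgsh) to 0.23 (Lgmn), with 3 higher in both mutants and 1 lower. The 24 with a window but without it had a median of 0.0034 and a range of -0.27 to 0.31, with 4 higher and 5 lower. By the core CACGTG alone, the 14 genes with it had a median of 0.07, with 5 higher in both mutants and 1 lower, and the 21 without it had a median of -0.0023, with 2 higher and 5 lower. None of these sets had a gene that passed. Over all genes tested, 16.8% were higher in both mutants and 16.5% lower in both. Lamp1, counted as higher among the genes with either motif, had 4340.96 in mutant 39 against 4340.27 in wild-type 73. The difference between the sets was not tested.

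For the other 33 genes, the libraries of at least 1 group differed by as much as the group means did or by more. The libraries rich in choroid plexus markers, wild-type 11 and mutant 38, both exceeded the other 2 for 14 of the 39 lysosomal genes, against 20.6% of all genes tested. They were both below for 3 (Smpd1, Mcoln1 and Neu1), against 20% of all. The libraries were divided here by their marker level and not by a label, and no test was made. The 14 comprised 4 of the 7 membrane proteins, 5 of the 10 proteases, 3 of the 4 activators and soluble partners, 1 of the 4 lipid and acyl hydrolases and 1 of the 11 glycosidases. Cd63 had the widest gap, with 457 for wild-type 11 and 446 for mutant 38, above 236 for wild-type 73 and 318 for mutant 39, or 1.40-fold between the nearest libraries. Lamp2 (1.23-fold), Npc2 (1.21-fold), Lipa (1.19-fold) and Gm2a (1.14-fold) followed. Meningeal fibroblast markers moved along, summing to 3445 and 3854 in the first pair against 2359 and 1304 in the second, with 4 of 5 divided the same way. The fifth, Dcn, had 801 in wild-type 11 and 1059 in wild-type 73, compared with 473 in mutant 38 and 259 in mutant 39. It was lower in both mutants (log2 fold change -1.39 ± 0.28, SE from 2 libraries per group) and did not pass. The part of choroid plexus or meningeal RNA in these lysosomal genes was not tested. Within the pair rich in choroid plexus markers the median difference of the 39 genes, mutant minus wild-type, was -0.02, and within the poor pair it was 0.03.

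Wild-type 73, the library with the lowest depth, was the lowest of the 4 for 19 of the 39 genes and the highest for 11, against 30.5% and 30% of all genes tested. Ctsz showed this most, with 297 in wild-type 73 against 495 in wild-type 11, 450 in mutant 38 and 414 in mutant 39. Across the 39 genes, the difference of wild-type 11 from wild-type 73 and that of mutant 38 from mutant 39 had a Pearson r of 0.34 and a Spearman rho of 0.25. Over the 11070 genes with a mean at least as high as the lowest lysosomal gene they were 0.54 and 0.28. These are descriptions across genes measured in the same 4 libraries, and genes are not independent replicates. Cd63, Lamp2 and Ctsz were named here after their values were seen.

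**Figure D5:**
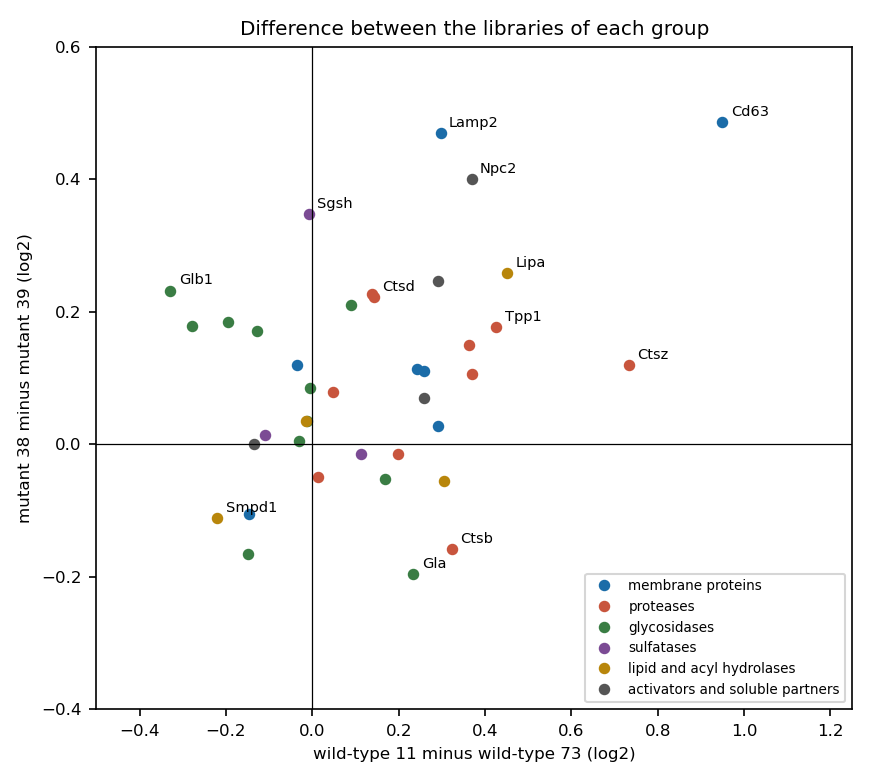
Difference between the libraries of each group on the log2 scale, wild-type 11 minus wild-type 73 (horizontal) and mutant 38 minus mutant 39 (vertical), for the 39 genes coloured by role. Points in the upper right, Cd63, Ctsz and Lamp2 among the outermost, were higher in wild-type 11 than in wild-type 73 and higher in mutant 38 than in mutant 39.

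Further genes of the lysosome were taken from lists written beside the 39. For comparison, 16.8% of all genes tested were higher in both mutants and 16.5% lower, and their median log2 fold change was 0.0067. Of 20 other hydrolases and their modifiers, 0 passed, 3 were higher in both mutants and 1 lower, and the median log2 fold change was 0.08. Ctsk, the cathepsin known from bone, had 32.0 and 24.8 in wild-types 11 and 73, compared with 50.6 and 41.5 in mutants 38 and 39. These are few reads, both mutants were higher, and the difference was 0.68 ± 0.31 (SE, n = 2 per group; limma adjusted p = 0.989). Hgsnat, the acetyltransferase of heparan sulfate breakdown, was at 0.19 ± 0.10. Of 19 other lysosomal membrane proteins, 0 passed, 4 were higher in both mutants and 2 lower, with a median of 0.04. Laptm4b and Laptm4a, membrane proteins of late endosomes and lysosomes, were at 0.24 ± 0.12 and 0.28 ± 0.17. Of 16 sorting and regulatory genes, among them the mannose 6-phosphate receptors, Tfeb and mTORC1 components, 0 passed, 1 was higher in both mutants and 2 lower, with a median of 0.04. Rptor, the mTORC1 scaffold, had -0.17 ± 0.10, and Flcn, a regulator of the Rag GTPases, had -0.19 ± 0.13 (SE, n = 2 per group). None of the genes on these 3 lists had an unadjusted limma p below 0.05.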

How the data were processed

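GSNAP, DESeq2 and build mm9 are named in the submitters' processing notes without versions. Not given in the sources used here are the counting tool, its use of strand and the annotation. The authors deposited 1 signal value per RefSeq record and library, aligned bases divided by a scaling factor per library. All values (100%) were whole multiples of a step within 0.05, with low values at 42, 84 and 126 steps, and values were divided by 42. The deposited p-value column does not say whether it is adjusted. The comparison used limma 3.58.1 (R 4.3.3) on log2(read equivalents + 1) for genes with at least 1 read equivalent in 2 libraries. The moderated test was two-sided, its prior followed the mean-variance trend, and p-values were adjusted by Benjamini-Hochberg over all 18127 genes, with a threshold of 0.05. This scale understates changes of low genes. The script was tested on simulated data. The smallest p of an exact permutation test at this size is 0.333. Lengths came from GENCODE M21 transcripts matched by RefSeq accession (39 of 39) and promoters from RefSeq (GRCm38.p6). The genes, lists, roles and motifs were chosen with earlier results of these data known. Values in every library are given for the 12 genes with the smallest p, the 3 highest and 3 lowest per kilobase, the extremes of each role, and Lamp1, Lamp2, Ctsb, Ctsd and Grn, and any other gene with such values was picked after they were seen. Plots used Python 3.11.15 and matplotlib 3.10.9.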

Additional observations from a re-analysis of the deposited data

How the results depend on the processing

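No lysosomal gene passed under any of the 15 alternatives, and their smallest adjusted p was 0.270, for Ctsl without wild-type 11. No paired analysis was possible because the groups share no replicate numbers. Over all genes, 62 passed with no filter on low values, 12 with a robust variance prior and 74 with a choroid plexus covariate, against 1 in the reported fit, and between 1 and 37 when 1 library was left out. The causes were not tested. The median log2 fold change of the 39 genes was between -0.048 and 0.12 when 1 library was left out. It stayed between 0.04 and 0.07 under the 11 other alternatives. Counts of genes with both mutants beyond both wild-types were not made with a library left out. Under those 11, 36 of the 39 genes kept their sign, and the exceptions were Lamp2 with the first record in the table (-0.0079) and, with the choroid plexus covariate, Galc (-0.0017) and Neu1 (0.0043). Leaving out 1 library turned the sign of 22 genes, with these ranges of the log2 fold change: Asah1 -0.082 to 0.22, Cd63 -0.28 to 0.67, Ctsa -0.13 to 0.096, Ctsb -0.015 to 0.31, Ctsd -0.044 to 0.18, Ctsh -0.093 to 0.28, Ctss -0.028 to 0.17, Ctsz -0.20 to 0.54, Galc -0.096 to 0.11, Glb1 -0.016 to 0.31, Gm2a -0.064 to 0.23, Gusb -0.10 to 0.095, Lamp2 -0.15 to 0.31, Lipa -0.33 to 0.12, Mcoln1 -0.11 to 0.038, Naglu -0.14 to 0.028, Neu1 -0.090 to 0.077, Npc1 -0.048 to 0.24, Npc2 -0.089 to 0.31, Psap -0.052 to 0.21, Smpd1 -0.19 to 0.028, Tpp1 -0.22 to 0.21. The other 17 genes kept their sign in every alternative run. With 2 libraries per group the standard error of a log2 fold change was between 0.09 and 0.31.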
